A study of Mus musculus with 6 samples.

Results

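The 53 genes described here encode the enzymes that burn fatty acids in mitochondria and the enzymes and assembly factors of peroxisomes. They were measured in stromal cells of mouse bone marrow that had engulfed apoptotic thymocytes and in unfed cells. They were taken by symbol from a table of 53735 features, as 36 named genes plus every symbol made of Pex, a number and at most a single letter, which added 17. Of these, 22 act in mitochondrial oxidation and 25 in peroxisomes, and the rest are 4 long-chain acyl-CoA synthetases, Pdk4 and Ucp2. All but Pex5l had enough reads to be tested. Pex5l fits the naming pattern but encodes a regulator of neuronal ion channels, and had 0, 1 and 1 reads in control and 1, 4 and 1 in fed libraries.

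The series asks what phagocytosis does to cells of the mesenchymal and osteoblast lineage. All 6 libraries came from wild-type mouse marrow stromal cells, sorted as negative for blood lineage markers, CD45 and CD31 and positive for CD51, grown at 2% oxygen without ascorbic acid and used at passage 2 or 3. The 3 fed libraries came from cultures given apoptotic mouse thymocytes carrying a fluorescent dye, held for 24 h at 5% oxygen and sorted for dye-positive cells. The 3 control libraries came from sorted cells of cultures given no thymocytes, and the labels do not give their oxygen or medium over the last 24 h. Mouse strain, age, sex and the origin of each replicate are not given in the labels, so each p-value reflects only how far these libraries scatter, which may be technical. The fed cells were selected for uptake and the control cells were not, so feeding and that selection cannot be told apart. Any difference in oxygen or medium over the last 24 h cannot be told apart from feeding either.

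Long-chain fatty acids are first joined to coenzyme A by acyl-CoA synthetases. Carnitine palmitoyltransferases then carry them into mitochondria, where acyl-CoA dehydrogenases, hydratases, hydroxyacyl-CoA dehydrogenases and thiolases shorten them in repeated cycles. The electrons from the dehydrogenase step leave through the electron transfer flavoprotein. Peroxisomes shorten very long and branched chains with their own enzymes, which are imported from the cytosol by the peroxins, the Pex proteins. In marrow stroma, fatty acids also serve as fuel for osteoblast lineage cells and as a store in adipocytes.

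Libraries held between 19069074 and 22410047 counts. The first principal component, with 61.6% of the variance, separated control from fed, and on the second, with 13.4%, control replicate 3 (control 3, and likewise for the other libraries) lay farthest from the other control libraries. Stromal genes were abundant, with summed levels of 42056 to 43253 CPM (counts relative to the scaled library total) over 13 markers in control and 38129 to 40133 in fed libraries. Col1a1 and Col1a2 made up most of these sums (control means of 19408 and 12550 CPM), while Lepr was at 4.17. The 22 thymocyte markers summed to 3.35 to 3.85 CPM in control and 3.82 to 5.33 in fed libraries, with Cd3g, Ptcra, Rag2 and Cd2 at no reads in any library and Cd3e, Cd4, Cd8a, Cd8b1, Dntt and Cd27 read in fed libraries alone. The 16 macrophage markers summed to 15.3 to 16.9 CPM in control and 21.9 to 24.3 in fed libraries. Of the 5 macrophage markers tested, edgeR called Lyz2 and Cd14 higher, and Cd14 was no longer called when any 1 library was left out, by DESeq2 or by limma-voom. Adgre1, Itgam, C1qa, C1qb, C1qc and Tyrobp had reads in fed libraries but none in control, and Fcgr1 had none at all. The 9 endothelial markers summed to 11.1 to 11.5 and 10.2 to 11.7 CPM, with Cdh5, Emcn and Tie1 at no reads. The 10 adipocyte markers summed to 151 to 152 CPM in control and 173 to 177 in fed libraries, and Lep had no reads. Most of this was Fabp4 (means of 118 and 142 CPM), followed by Pnpla2 (24.5 and 23.2). The summed levels of the macrophage and adipocyte lists were higher, and that of the stromal list lower, in every fed library than in any control. With the scaling used, the sum over all genes tested was also lower in fed libraries (986370 to 992241 CPM) than in control (1003600 to 1016230). Of the 13 stromal markers, edgeR called 6 lower (Pdgfra, Pdgfrb, Ly6a, Col1a1, Col1a2 and Eng) and 3 higher (Nt5e, Twist1 and Vim). Without fed replicate 3, only Nt5e was higher. The count lower was 5, without Col1a1, with library totals only and when control 2 or fed 1 was left out. It was 7 by DESeq2 and limma-voom. The endothelial marker Vwf was also called lower (adjusted p = 0.00702). The part of these markers in the changes below was not tested.

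Upstream sequences are given for the genes on which the results turn, so that the changes can be read beside them. These are Acadm and Pex11a, which had the most negative fold changes of their compartments, Cpt1a and Pdk4, which rose, and the Hadha and Hadhb pair, which share a divergent start region. Sequences are from RefSeq on GRCm38.p6, 5′ to 3′ on the strand of the gene (plus strand for the pair), cut to bases outside GENCODE exons. The Cpt1a stretch lies before the RefSeq start used but inside the GENCODE gene, which starts at 3322334. Capitals mark AGGTCA, the half-site read by nuclear receptors such as the PPAR and RXR proteins, on either strand (TGACCT where it lies on the opposite strand).
Acadm, minus strand, chr3:153944644-153944893: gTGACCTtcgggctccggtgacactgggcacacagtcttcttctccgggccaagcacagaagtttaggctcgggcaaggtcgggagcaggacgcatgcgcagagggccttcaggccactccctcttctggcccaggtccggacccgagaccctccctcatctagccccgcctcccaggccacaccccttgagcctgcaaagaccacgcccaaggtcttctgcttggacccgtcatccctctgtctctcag
Pex11a, minus strand, chr7:79743132-79743162: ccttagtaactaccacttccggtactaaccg
Cpt1a, plus strand, chr19:3323051-3323284: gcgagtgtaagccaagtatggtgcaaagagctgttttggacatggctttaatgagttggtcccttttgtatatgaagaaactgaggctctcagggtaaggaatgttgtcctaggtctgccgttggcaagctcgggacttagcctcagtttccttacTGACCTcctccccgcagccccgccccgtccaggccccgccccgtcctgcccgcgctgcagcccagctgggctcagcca
Pdk4, minus strand, chr6:5496310-5496528: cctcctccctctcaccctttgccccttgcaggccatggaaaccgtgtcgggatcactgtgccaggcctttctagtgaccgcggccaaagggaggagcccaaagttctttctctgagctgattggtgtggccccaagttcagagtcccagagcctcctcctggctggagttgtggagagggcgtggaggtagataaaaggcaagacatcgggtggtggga
Hadha and Hadhb, chr5:30155163-30155247: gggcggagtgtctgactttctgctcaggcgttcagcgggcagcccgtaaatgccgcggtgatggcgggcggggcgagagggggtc

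RefSeq windows of 300 bases, from 250 before to 50 after a gene's start, were found for 42 of the 53 genes (46 windows). AGGTCA was in 8 of these 46 windows (17.4%), those of Acadm, Acadvl, Cat, Cpt1a, Cpt1c, Echs1, Pex11g and Scp2, against 16.3% of all 32851 windows in the table. The 8 include genes that rose, fell and did not pass. A loose direct repeat of this half-site, with 1 base between the copies and a free base in each, was in none of the 46 and in 0.381% of all windows. The E-box CACGTG was in none of the 46 and in 7.15% of all. Its inner letters ACGTG, which are also the core of the hypoxia response element, were in the windows of Acadvl, Pex10, Pex11g, Pex16 and Pex7 and in 19.6% of all. None of those 5 genes passed the test.

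Of the 52 tested, 3 rose (Cpt1a, Etfb and Pdk4) and 11 fell in fed cells at an adjusted p under 0.05 by edgeR's quasi-likelihood test, and 38 did not pass. The 11 were 7 without fed replicate 2, without fed replicate 3 and by DESeq2. With library totals only in place of scaled ones, 5 rose and 8 fell. The share called was 26.9%, against 39.5% of all 13092 genes tested (20.5% higher, 19% lower). The median absolute log2 fold change was 0.09 over these genes and 0.16 over all genes tested. These medians were not matched for level, and SEs reached 0.17 over these genes and 1.14 over all genes. The median signed change was -0.04, beside -0.01 for all genes. The groups did not overlap for 20 of the 52, 5 higher and 15 lower, against 49.1% of all genes (25.1% higher, 24% lower). In these bulk samples, fewer cells of a type and less RNA per cell cannot be told apart.

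**Figure D1:**
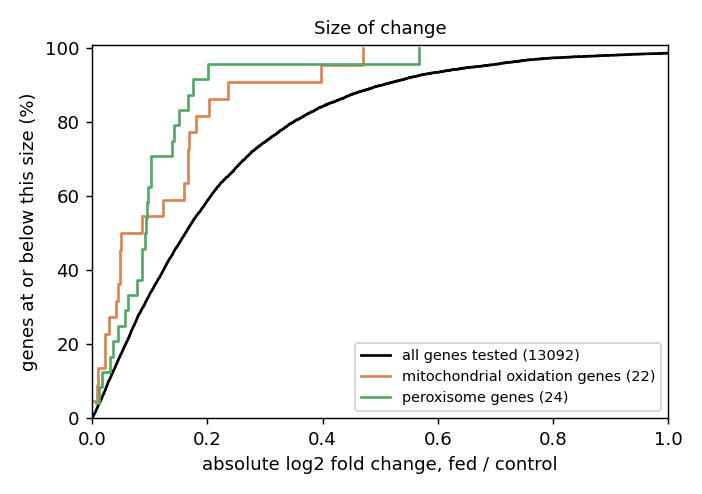
Cumulative share of genes (y axis, %) by absolute log2 fold change of fed over control (x axis, shown up to 1) for all 13092 genes tested, the 22 mitochondrial oxidation genes and the 24 tested peroxisome genes. The 22 and 24 genes have medians of 0.07 and 0.09, against 0.16 for all genes, which were not matched to them for level.

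**Figure D2:**
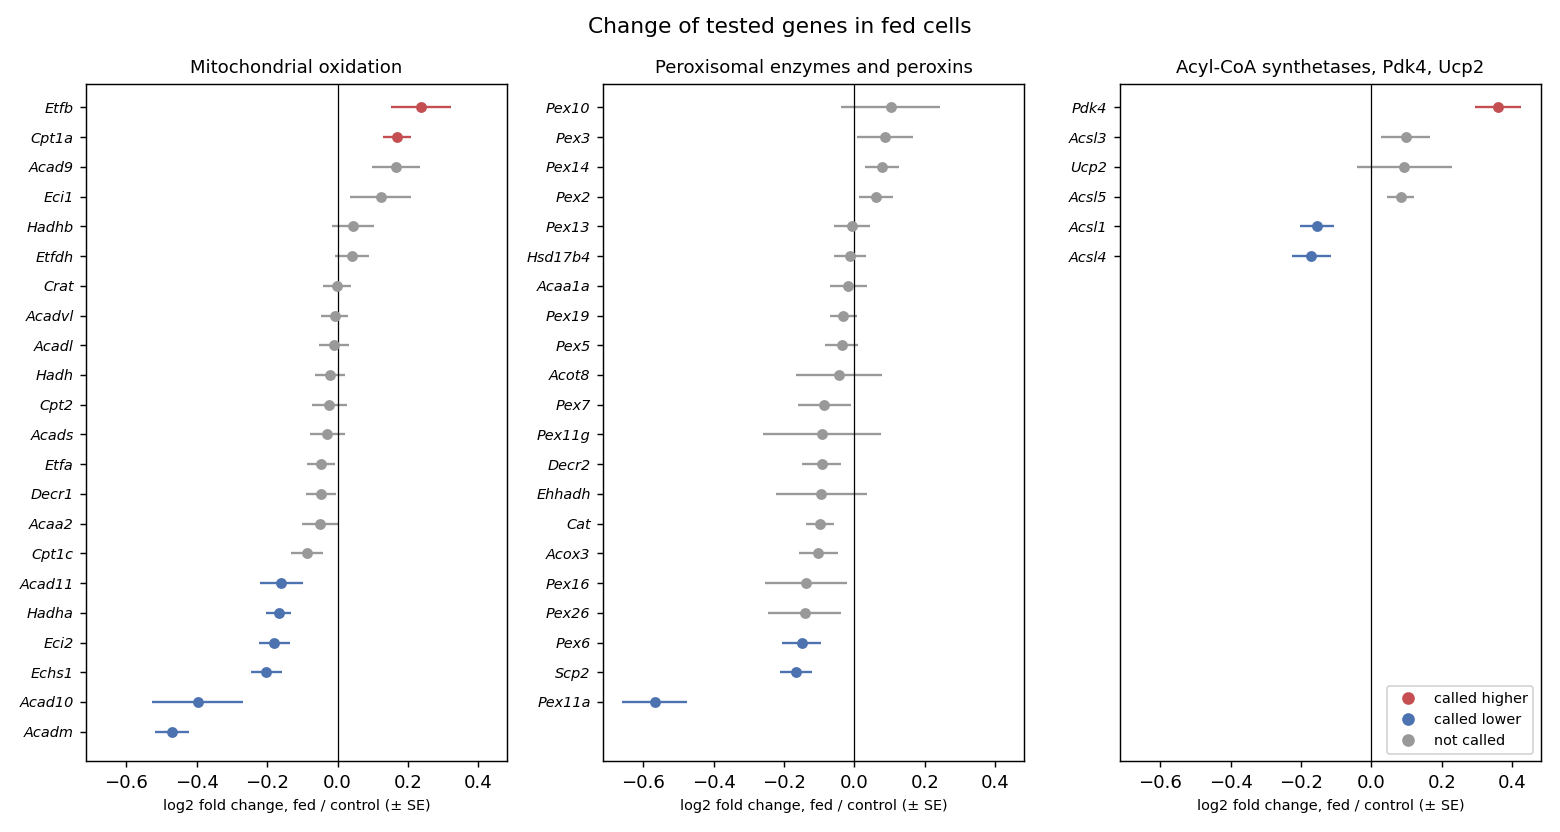
Log2 fold change of fed over control with its standard error (x axis) for 49 of the tested genes, ordered within 3 panels by value. Pex11a, at -0.57, has the most negative value, Acadm lies at -0.47 and Pdk4, at 0.36, is highest.

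In mitochondrial oxidation, 2 of 22 genes rose and 6 fell. The share called, 36.4%, was close to the 39.5% of all genes (20.5% higher, 19% lower). The 6 were 3 acyl-CoA dehydrogenases (Acadm, Acad10 and Acad11), 2 enzymes of the steps that follow (Hadha and Echs1) and an isomerase (Eci2). The median log2 fold change was -0.03, and 16 of the 22 values were below 0, beside 6685 of all 13092 genes. The values of Crat, Acadvl, Acadl, Hadh, Cpt2 and Acads were close to 0 and above it under some alternative settings (at most 0.029). The summed level of the 22 was 1220, 1243 and 1236 CPM in control replicates 1 to 3 and 1176, 1176 and 1194 in the fed libraries. With this scaling the sum over all genes tested was also lower in fed libraries (986370 to 992241 CPM) than in control (1003600 to 1016230). The lower sum of the 22 is thus in part that of all genes. By DESeq2, 1 of the 22 rose and 4 fell. The count that rose was also 1 without control 1, control 2, fed 1 or fed 3, as Etfb was no longer called.

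At entry, Cpt1a, the outer membrane palmitoyltransferase that sets the rate of long-chain import, rose. It had 67.8, 69.6 and 68.5 CPM in control and 78.8, 76.9 and 75.6 in fed libraries. Every fed library was above every control, a log2 fold change of 0.17 with an SE of 0.04 (adjusted p = 0.00219). The other 3 genes of the carnitine step did not pass. Cpt2, which releases the acyl group from carnitine inside the mitochondrion, had a log2 fold change of -0.02 ± 0.049. Crat, the acetyltransferase for short chains found in both organelles, was at 70.6 ± 0.586 CPM in control and 70.4 ± 0.992 in fed libraries (SD, n = 3). Cpt1c, a form known mainly from neurons and the endoplasmic reticulum, had 48.4, 49.7 and 48.8 CPM in control and 45.9, 44.8 and 47.6 in fed libraries, without overlap (adjusted p = 0.147). Slc25a20, the carnitine-acylcarnitine carrier of the inner membrane, did not pass (log2 fold change -0.03, adjusted p = 0.685). Cpt1b, the muscle form, had no reads in control and 0, 1 and 4 in fed libraries.

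Among the 7 acyl-CoA dehydrogenases, which take chains of different length, Acadm fell the most. This medium-chain enzyme (chromosome 3, 153922357 to 153944632) had 58.7, 55.2 and 53.4 CPM in control and 39.2, 41.4 and 40.3 in fed libraries. The groups lay well apart, with a log2 fold change of -0.47 ± 0.049, a change of -27.8% (adjusted p = 2.37e-07). The enzymes for longer and shorter chains did not pass. Acadvl, for very long chains, was at 104 ± 3.23 and 104 ± 0.991 CPM, and Acadl, for long chains, had a log2 fold change of -0.01 ± 0.043. Acads, for short chains, had -0.03 ± 0.049.

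Acad10 and Acad11 are less studied members of the family, and Acad11 has also been placed in peroxisomes. Acad10 was low, at 5.51, 5.05 and 4.90 CPM in control and 4.26, 3.49 and 4.01 in fed libraries, a log2 fold change of -0.40 ± 0.13 (adjusted p = 0.0184). Leaving out control replicate 1 or fed replicate 2 ended the call (adjusted p = 0.0742 and 0.0984), as did DESeq2 (0.0861). Acad11 had 27.0, 24.7 and 25.02 CPM in control and 22.7, 22.9 and 23.0 in fed libraries, a log2 fold change of -0.16 (adjusted p = 0.0413). That call ended when control 1, fed 1, fed 2 or fed 3 was left out (adjusted p = 0.174, 0.0874, 0.0927 and 0.0775), by DESeq2 (0.148), with library totals only (0.0994) and with no filter on low counts (0.0878). Acad9, which also serves in building complex I of the respiratory chain, had 22.3, 24.9 and 26.0 CPM in control and 28.5, 25.4 and 28.3 in fed libraries. Its groups overlapped and its log2 fold change of 0.17 did not pass (adjusted p = 0.0559), though it did without control replicate 3 (0.0236) or fed replicate 2 (0.0282), with library totals only (0.0254) and with no filter on low counts (0.0298).

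**Figure D3:**
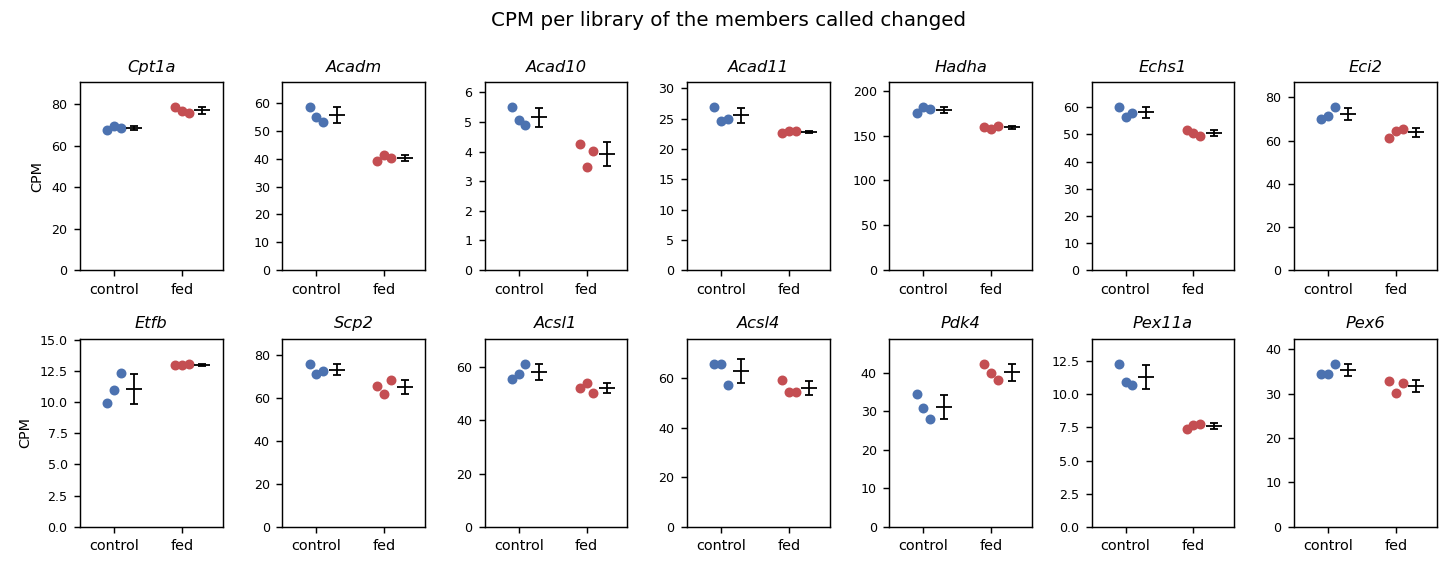
CPM (y axis, from 0) in each of the 3 control and 3 fed libraries for the 14 genes called changed, with the mean and SD of each group as black bars. The groups are apart in every panel but that of Acsl4.

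The trifunctional protein, which carries out the last steps of the cycle on long chains, is built from the products of Hadha and Hadhb. Hadha had 175, 182 and 179 CPM in control and 159, 158 and 161 in fed libraries, a log2 fold change of -0.17 ± 0.036 (adjusted p = 0.000889). Hadhb had 38.6, 37.9 and 38.7 CPM in control and 35.2, 41.9 and 41.5 in fed libraries, with fed replicate 1 below and the other two above every control (log2 fold change 0.04 ± 0.060). The genes lie head to head, with 272 bases between their RefSeq starts, and the part of that stretch outside exons is the sequence printed above. The ratio of Hadha to Hadhb was 4.55, 4.80 and 4.63 in control and 4.52, 3.76 and 3.88 in fed libraries, so it was lower in all fed libraries, fed replicate 1 by little. Per kilobase of transcript, Hadha had 44.5 and Hadhb 18.7 CPM in control cells.

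Of the 6 matrix and auxiliary enzymes that follow, Echs1 and Eci2 fell and 4 did not pass. Echs1, the enoyl-CoA hydratase of the matrix, had 60.1, 56.3 and 57.7 CPM in control and 51.4, 50.5 and 49.6 in fed libraries (log2 fold change -0.20 ± 0.045, adjusted p = 0.00122). Every fed library was below every control. Hadh, the hydroxyacyl-CoA dehydrogenase that acts next, was at 64.2 ± 0.0941 and 63.2 ± 2.47 CPM, and Acaa2, the thiolase that closes the cycle, had a log2 fold change of -0.05 ± 0.050. Of the auxiliary enzymes for unsaturated chains, Eci2, an isomerase of mitochondria and peroxisomes, had 69.9, 71.4 and 75.6 CPM in control and 61.4, 64.4 and 65.5 in fed libraries. It fell by 0.18 on the log2 scale (adjusted p = 0.00284). The mitochondrial isomerase Eci1 (log2 fold change 0.12 ± 0.087) and the reductase Decr1 (-0.05 ± 0.043) did not pass.

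Of the electron transfer flavoprotein, the small subunit gene Etfb rose, from 9.92, 10.96 and 12.3 CPM in control to 12.9, 13.0 and 13.1 in fed libraries (log2 fold change 0.24 ± 0.085, adjusted p = 0.0321). Control replicate 3 was close to the fed libraries. The call ended by DESeq2 and when any library but control 3 was left out (adjusted p = 0.178 without control 1, 0.0869 without control 2, and 0.0577, 0.0774 and 0.0800 without fed 1, 2 and 3). Without control replicate 1 the log2 fold change was 0.16. The large subunit gene Etfa had a log2 fold change of -0.05 ± 0.040, and Etfdh, which passes the electrons to ubiquinone, of 0.04 ± 0.049. The ratio of Etfa to Etfb was 9.14, 8.36 and 7.81 in control and 6.77, 6.98 and 6.96 in fed libraries. Both subunit ratios were chosen after their values were seen. Each gave p = 0.100 (adjusted over the 2 ratios 0.100) in a two-sided exact permutation test, the smallest p that 3 against 3 libraries allow. Both ratios were already seen to be apart between the groups, which fixed this p, so the test adds nothing to the values.

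Of the 24 peroxisome genes tested, 3 fell (Scp2, Pex11a and Pex6) and none rose, where 20.5% of all genes rose and 19% fell. At an unadjusted p under 0.05 by edgeR, 4 were lower and 0 higher, beside 3011 and 3163 of all 13092 genes. DESeq2 called 2 lower and 0 higher, beside 1894 and 2077 of all genes. With limma-voom these were 3 and 0, beside 2490 and 2629. The median log2 fold change was -0.09, beside -0.01 for all genes. Of the 24 values, 19 were below 0, beside 6685 of all 13092 genes.

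All 8 peroxisomal enzymes had values below 0, beside 6685 of all 13092 genes, and 1 passed. The values of Hsd17b4, Acaa1a, Ehhadh and Acot8 were above 0 under some alternative settings (at most 0.037). Scp2, whose products include a thiolase for branched chains and a sterol carrier protein, had 76.0, 70.9 and 72.5 CPM in control and 65.4, 61.7 and 68.4 in fed libraries. It fell by 0.17 on the log2 scale (adjusted p = 0.00642), a call that ended without fed replicate 2 (0.0595). Cat, the catalase that destroys hydrogen peroxide made in peroxisomes, had 100.0, 105 and 107 CPM in control and 96.1, 97.8 and 97.6 in fed libraries. Its groups did not overlap, but its log2 fold change of -0.10 ± 0.039 missed the threshold (adjusted p = 0.0529). It passed without control replicate 1 (0.0221), with upper quartile scaling (0.0309) and with the stricter filter on low counts (0.0457). Acox3, an oxidase for branched chains, and Decr2, the peroxisomal reductase, likewise did not overlap between groups and did not pass (adjusted p = 0.150 and 0.199). The bifunctional enzyme genes Hsd17b4 and Ehhadh had log2 fold changes of -0.01 ± 0.045 and -0.09 ± 0.13, the thiolase Acaa1a of -0.02 ± 0.053 and the thioesterase Acot8 of -0.04 ± 0.12. Acaa1a has a near-identical neighbour, Acaa1b, so its counts are less certain. The summed level of the 8 enzymes was 378, 376 and 390 CPM in control and 361, 361 and 360 in fed libraries. The sum over all genes tested was also lower in fed libraries (986370 to 992241 CPM) than in control (1003600 to 1016230).

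Of the 16 peroxins tested, 2 fell and none rose (12.5% called, beside 39.5% of all genes). At an unadjusted p under 0.05 edgeR also gave 2 lower and 0 higher, DESeq2 called 1 lower and limma-voom 2, with 0 higher by either. The counts of all genes by these criteria are those given with the peroxisome genes above. The 2 became 1, Pex11a alone, without control 2, control 3 or fed 3. Pex11a, a membrane protein that helps to shape and divide peroxisomes, had the largest change of all 52 genes. It lies on chromosome 7 (79735957 to 79743131), head to head with Wdr93 and next to Plin1. It had 12.3, 10.9 and 10.7 CPM in control and 7.38, 7.73 and 7.80 in fed libraries, and every fed library was well below the lowest control. The log2 fold change was -0.57 ± 0.092, a change of -32.5% (adjusted p = 5.35e-05). Pex11g, of the same family, did not pass (log2 fold change -0.09 ± 0.17). Plin1, a lipid droplet protein of adipocytes, was below 1.3 CPM in every library, with 0.695, 0.661 and 0.527 CPM in control and 1.24, 0.506 and 1.28 in fed libraries (adjusted p = 0.128).

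Pex6, an ATPase that, held at the membrane by its anchor Pex26, helps to pull the import receptor back out of the membrane, had 34.5, 34.5 and 36.8 CPM in control and 32.8, 30.2 and 32.3 in fed libraries. The groups were apart, with a log2 fold change of -0.15 ± 0.055 (adjusted p = 0.0355). The call ended when control 2, control 3, fed 2 or fed 3 was left out (adjusted p = 0.0586, 0.128, 0.170 and 0.0548), by DESeq2 (0.122), with library totals only (0.0990) and with no filter on low counts (0.0683). Pex26 did not pass, with a log2 fold change of -0.14 ± 0.10. The import receptors Pex5 and Pex7 had values of -0.04 and -0.09. The docking genes Pex13 and Pex14 had -0.01 and 0.08, and Pex14 did not overlap between groups (adjusted p = 0.208). The ubiquitin ligase genes Pex2 and Pex10 had 0.06 and 0.10. The membrane assembly genes Pex3, Pex16 and Pex19 had 0.09, -0.14 and -0.03. Standard errors over the 24 peroxisome genes ranged from 0.038 for Pex19 to 0.17 for Pex11g, so changes of the size of that in Pex6 could not be told from 0 in the scarcer ones.

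Of the 4 acyl-CoA synthetases, which activate long chains for any use, 2 fell and none rose (50% called, beside 39.5% of all genes). Without fed replicate 3, none was called. Acsl1, linked to oxidation and storage, had 55.5, 57.3 and 61.3 CPM in control and 52.1, 53.9 and 50.3 in fed libraries (log2 fold change -0.15 ± 0.048, adjusted p = 0.0152). Its groups did not overlap, and the call ended when control 3 or fed 3 was left out (0.0821 and 0.0794), with library totals only (0.0548) and by DESeq2 (0.0555). Acsl4, which prefers arachidonic acid, had 65.8, 65.6 and 57.0 CPM in control and 59.3, 54.2 and 54.2 in fed libraries. Control replicate 3 lay within the fed range, so its groups overlapped (log2 fold change -0.17 ± 0.056, adjusted p = 0.0214). This call ended when control 1, control 2, fed 2 or fed 3 was left out (0.0890, 0.106, 0.101 and 0.0962). Acsl5 had 102, 104 and 107 CPM in control and 109, 109 and 112 in fed libraries, without overlap, and did not pass (log2 fold change 0.08 ± 0.038, adjusted p = 0.0856), though it did with library totals only (0.0247). Acsl3, found on lipid droplets, had a log2 fold change of 0.10 ± 0.070.

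Pdk4, a kinase that switches off pyruvate dehydrogenase and so spares glucose when fat is burned, rose. It had 34.5, 30.9 and 28.1 CPM in control and 42.4, 39.9 and 38.1 in fed libraries, and every fed library was above every control. The log2 fold change was 0.36 ± 0.066, or 28.4% higher (adjusted p = 0.000278). The other 3 kinases of the family went the other way. Pdk1, the form induced by hypoxia, went from 262 ± 2.81 to 196 ± 6.59 CPM (adjusted p = 2.18e-08), and Pdk2 had log2 fold change -0.36 ± 0.070 (adjusted p = 0.000502). Pdk3 fell by 0.15 (adjusted p = 0.0114), a call that ended when control 2 or fed 1 was left out, with an adjusted p of at most 0.0865 over its alternatives. Ucp2, a carrier of the inner membrane, was low, with 3.48, 4.44 and 4.37 CPM in control and 4.36, 4.32 and 4.40 in fed libraries (adjusted p = 0.611).

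**Figure D4:**
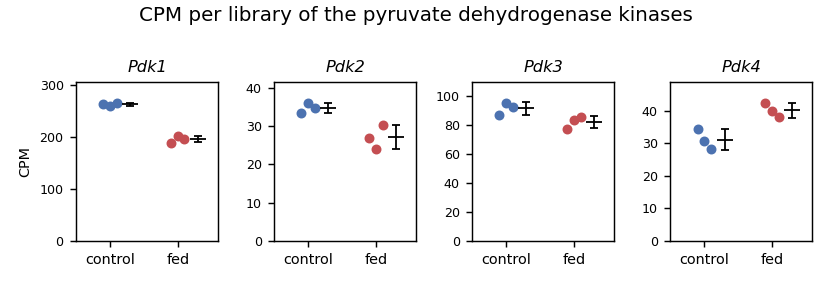
CPM (y axis, from 0) of the 4 pyruvate dehydrogenase kinase genes in each control and fed library, with group mean and SD as black bars. Pdk4 is higher in all 3 fed libraries, while Pdk1, Pdk2 and Pdk3 are lower in all 3.

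By level per kilobase of transcript in control cells, the genes spanned a wide range. Etfa was highest at 66.7 CPM per kilobase, followed by Pex19 (49.8), Acadvl (48.1), Hadha (44.5) and Eci2 (41.4). Acadm was at 27.2 in control and 19.7 in fed cells, so it passed from above Acads (22.2 and 21.8) to below it. Cpt1a was at 15.9 and 17.9 CPM per kilobase, Pex11a at 5.05 and 3.41 and Pdk4 at 8.94 and 11.5. Acad10 (1.35), Pex11g (1.29) and Ucp2 (1.03) were the lowest of the tested genes.

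Other genes of the same pathways, from lists written by function with earlier results of these data known, also held genes that rose and genes that fell. Of 35 further genes listed as peroxisomal and tested, 6 rose and 6 fell (34.3%, beside 39.5% of all genes), with a median log2 fold change of -0.00. Without fed replicate 3 these counts were 3 and 4. The list was broad, and not all of its genes act only or mainly in peroxisomes, Mpv17l2 and Xdh among them. Idh1, which makes NADPH in cytosol and peroxisomes, fell from 179 ± 8.62 to 121 ± 2.72 CPM (adjusted p = 1.77e-09), and the purine oxidase Xdh from 215 ± 2.21 to 169 ± 3.14 (adjusted p = 2.18e-07). Agps, which makes the ether bond of plasmalogens, rose by 0.25 (adjusted p = 2.15e-05). Abcd3, a transporter of acyl-CoA into peroxisomes, had a log2 fold change of -0.03 and did not pass. Of 27 further genes of mitochondrial oxidation and acyl-CoA handling tested, 3 rose and 3 fell (22.2%). Among these, Acadsb, the dehydrogenase for short branched chains, fell by 0.26 (adjusted p = 9.1e-05). The acyl-CoA thioesterases Acot7 and Acot9 rose by 0.45 and 0.18, and Acot2 fell by 0.39, a call that ended without fed replicate 1 (adjusted p = 0.0855).

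Of 16 regulators tested, 3 were higher and 4 lower, and the share called, 43.8%, was near the 39.5% of all genes. The 4 were 2 without control 1 or control 2 and 1 without fed 2 or fed 3. Pparg, the nuclear receptor of adipocytes that drives fat storage, rose from 35.6 ± 1.26 CPM by 0.49 on the log2 scale (adjusted p = 1.08e-07). Ppard, a receptor that promotes fatty acid oxidation, had 37.9, 37.8 and 38.3 CPM in control and 35.5, 34.8 and 32.9 in fed libraries (log2 fold change -0.15, adjusted p = 0.0302). Its call ended when any library but fed 1 was left out (adjusted p up to 0.135), by DESeq2, with library totals only and with no filter. Ppara, the form of liver and heart, was at most 0.614 CPM and did not pass (adjusted p = 0.226), and the coactivator genes Ppargc1a and Ppargc1b had at most 10 and 7 reads in a library and were not tested. Nrf1, a factor for nuclear genes of mitochondria, rose by 0.37 and the AMP kinase subunit gene Prkaa2 by 0.88 (from 1.33 ± 0.0582 CPM). Lpin1, a lipid phosphatase and coactivator, fell by 0.46 (adjusted p = 1.09e-05). Acaca and Acacb, the carboxylases whose product blocks Cpt1 enzymes, did not pass, at log2 fold changes of -0.05 and -0.30 (adjusted p = 0.451 and 0.127).

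Known targets of PPAR receptors outside the genes above, with the other Pdk kinases, gave 1 higher and 6 lower of 14 tested, a share called of 50% beside 39.5% of all genes. Pdk1, Pdk2 and Pdk3, already given above, are among the 6 lower, so this share is not that of PPAR targets alone. The 6 were 4 by DESeq2, with library totals only, and without control 2, control 3, fed 1 or fed 2. Angptl4, a secreted inhibitor of lipoprotein lipase, had 75.9, 66.4 and 60.7 CPM in control and 46.4, 41.3 and 36.7 in fed libraries. It fell by 0.71 (adjusted p = 0.00361), and the lipase inhibitor G0s2 rose by 0.45 (adjusted p = 0.00109). Of 13 tested genes that divide, tether or remove peroxisomes, most shared with mitochondria, 1 rose and 2 fell (23.1%, beside 39.5% of all genes). The count that rose was 2 without control 3, without fed 1 and with library totals only. Those lower were Nbr1, a receptor for autophagy of peroxisomes (log2 fold change -0.34, adjusted p = 3.67e-06), and Acbd5, which ties peroxisomes to the endoplasmic reticulum (-0.20, adjusted p = 0.00533). Atm, the DNA damage kinase that can also act at peroxisomes, rose by 0.27.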

How the data were processed

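Polyadenylated RNA from 6 libraries (3 control, 3 fed) was sequenced after a stranded preparation from 200 ng of total RNA, per the labels. The authors deposited raw counts per gene symbol. Per the submitters' processing notes, reads were trimmed with Trimmomatic 0.36, aligned to GRCm38 with STAR 2.6.0c, counted with featureCounts (Subread 1.6.1) and summarised with MultiQC 1.5. No source used here gives the annotation, whether counting used strand, or how reads matching several genes were treated, so counts of genes with close copies or overlapping genes on either strand (among those called, Acad11, Etfb, Hadha, Echs1, Eci2 and Acsl1) are less certain. Names read as dates made up 27 features with 0.227% of counts and stayed in the fit.

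In R 4.3.3, edgeR 4.0.16 kept 13092 genes by filterByExpr, scaled libraries by TMM and compared fed with control by the robust quasi-likelihood test without a replicate block. Genes were called at a Benjamini-Hochberg adjusted p under 0.05 over all genes tested. CPM use the TMM-scaled totals, and levels per kilobase use the length of 1 GENCODE M21 principal protein-coding transcript. SEs come from the F statistic. The test was checked on simulated data. Pairs of libraries within a group differed by more than sampling noise. Alternatives were RLE, upper quartile and no scaling, no filter, at least 1 CPM in 3 libraries, DESeq2 1.42.0, limma-voom (limma 3.58.1), a fit without robust estimation, a replicate block, an adjusted p under 0.01, Crat, Eci2 and Acad11 counted with peroxisomes, and each library left out. The genes and lists were chosen with earlier results of these data known. Counts and medians cover every tested member, and values of a few genes are not reported here. Called members are given per library, and of each other list at most 4 called genes with the smallest adjusted p and a fixed panel are named. Genes named beyond this were chosen after their values were seen.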

Additional observations from a re-analysis of the deposited data

How the results depend on the processing

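Over the 52 tested genes, 832 values were recomputed, 16 for each. Of these, 782 kept their side of the threshold, 38 lost a call and 12 gained one. No called gene changed direction, and 31 values of genes without a call changed sign. Among the 14 called genes, 7 kept their call throughout (Cpt1a, Acadm, Hadha, Echs1, Eci2, Pdk4 and Pex11a). The count of mitochondrial oxidation genes higher, 2, was 1 by DESeq2 and at an adjusted p under 0.01, 3 with library totals only or no filter on low counts, and 1 to 3 with a library left out. The count lower, 6, was 4 by DESeq2, 5 with library totals only or no filter, and 4 to 6 with a library left out. The count of peroxisome genes lower, 3, was 2 by DESeq2, with library totals only and with no filter. It was 4 with upper quartile scaling, with the stricter filter on low counts and with a replicate block. With a library left out it was 2 to 4. It was 5 with Crat, Eci2 and Acad11 counted there, which by construction moves 2 called genes from the mitochondrial list. Over all genes, 5175 calls became 4145 to 5088 with a library left out. The cause of the other changes was not tested.

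Same-numbered libraries deviated together with correlations of 0.149, 0.0226 and 0.134, so the numbers were not taken to pair the samples. Each library correlated best with that of its own number, a hint from the data and not from the design. With the replicate number as a block, 5848 genes were called, 3 mitochondrial oxidation genes were higher and 6 lower, and 0 peroxisome genes were higher and 4 lower. The block added calls for Acad9 (adjusted p = 0.0291), Cat (0.0223) and Acsl5 (0.0494), and 1 more gene was higher among those that divide, tether or remove peroxisomes.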

Other observations

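Among 11 tested genes of fatty acid uptake and activation outside the mitochondrial oxidation, peroxisome and acyl-CoA synthetase genes above, 2 rose and 1 fell. Together the called genes were 27.3% of the list, beside 39.5% of all genes. Fabp4 was also counted with the adipocyte markers above. Fabp4, a cytosolic fatty acid carrier of adipocytes and macrophages, had 120, 118 and 118 CPM in control and 139, 146 and 142 in fed libraries (log2 fold change 0.27, adjusted p = 9.01e-06 by edgeR). Acsbg1, an acyl-CoA synthetase known from brain, went from 0.554 ± 0.0851 to 1.53 ± 0.564 CPM (SD, n = 3; edgeR adjusted p = 0.000862). Its groups did not overlap. Slc27a1, a fatty acid transporter of the plasma membrane, fell by 0.31 on the log2 scale (edgeR adjusted p = 0.0141). That call ended by DESeq2 and without control 2, fed 2 or fed 3, so the count lower was then 0. The count higher was 3 without control 1, control 2, control 3 or fed 2, with library totals only and with no filter on low counts. Cd36, a scavenger receptor that takes up fatty acids and apoptotic cells, had 1 read in each control library and 10, 4 and 12 in the fed libraries, and was not tested.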
